A study of Mus musculus with 18 samples.

Results

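The transcripts described here are 10 genes in common use as markers of macrophages and microglia, namely *Csf1r*, *Cd68*, *Aif1*, *C1qa*, *C1qb*, *C1qc*, *Cx3cr1*, *Tyrobp*, *Lyz2* and *Itgad*, out of 40800 genes in the count table of 18 whole-lens RNA-seq libraries. They were taken by gene symbol, and all 10 were found. The genes were chosen by name with the measured levels and fold changes of these same libraries known, so their differences between groups are a description. No p-value is given for any of them, and how many were called is a description, beside how many of all genes were.

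Lenses came from C57BL/6J mice of a pair of knock-in lines, each carrying a point mutation of an α-crystallin gene that is linked to hereditary cataract, and the study asked which lens transcripts change at an early age. The *Cryaa*-R49C line, with a mutant αA-crystallin, was sampled at 2 days of age, with lenses of wild-type (WT) animals, of heterozygotes (het) and of homozygotes (homo). The *Cryab*-R120G line, with a mutant αB-crystallin, was sampled at 14 days of age as WT, het and homo. Each of the 6 groups had 3 libraries, each made from lenses pooled over several animals, and line and age cannot be told apart. In both lines the mutation lies at the gene's own locus and is present in every cell of the animal, so the read count of *Cryaa* or *Cryab* does not test the genotype. The genotype field of the 6 *Cryab* mutant libraries names the *Cryaa* mutation, and the titles were followed for their groups.

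Macrophages are phagocytes that live in nearly all tissues, and microglia are the resident macrophages of the retina and brain. Both depend on signals through the receptor CSF1R, take up and digest dying cells, and make the C1q protein that starts the classical complement pathway. The lens itself holds no blood vessels, but around birth it is wrapped in a transient capillary net, the tunica vasculosa lentis, which regresses over the first weeks of life with the help of macrophages. A lens taken whole from a newborn mouse can therefore carry RNA of cells from its surface.

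In the annotation of build GRCm38 the 3 C1q genes lie side by side on the minus strand of chromosome 4, with *C1qb* (ENSMUSG00000036905) at chr4:136880129-136886187, *C1qc* (ENSMUSG00000036896) at chr4:136889804-136893065 and *C1qa* (ENSMUSG00000036887) at chr4:136895917-136898803. *Cd68* (ENSMUSG00000018774) lies at chr11:69664213-69666153, *Aif1* (ENSMUSG00000024397) at chr17:35170991-35176068, *Lyz2* (ENSMUSG00000069516) at chr10:117277331-117282321 and *Cx3cr1* (ENSMUSG00000052336) at chr9:119901616-120069879, all on the minus strand. *Csf1r* (ENSMUSG00000024621), whose position is not given here, *Tyrobp* (ENSMUSG00000030579) at chr7:30413760-30417585 and *Itgad* (ENSMUSG00000070369) at chr7:128154376-128223816 lie on the plus strand. The reads were counted over whole genes. The strand setting of the counting is not given in the sources used here, and *Itgad*, *Csf1r* and *Cx3cr1* share exon bases with other genes. For *Itgad* these are *4931431B13Rik* (388 bases), *Gm39091* (102) and *Cox6a2* (70) on the opposite strand and the pseudogene *Gm17831* (330) on the same strand, for *Csf1r* *Hmgxb3* (873) and for *Cx3cr1* *Gm33858* (78), both on the opposite strand. The levels of *Cox6a2* and *Hmgxb3* are given beside those of the markers, and the others were not analysed here.

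Promoter sequence from RefSeq (GRCm38.p6) was at hand for 6 of the 10 genes, *Aif1*, *C1qb*, *C1qc*, *Cd68*, *Cx3cr1* and *Lyz2*. The transcription factor PU.1, which macrophages need for their development, is known to bind purine-rich sites around the letters GAGGAA. These 6 letters, searched on both strands of the 250 bases before the start of the RefSeq transcript, occurred in 4 of the 6 promoters and in 23.3% of 32851 promoters of the same length. The longer composite element of PU.1 and IRF factors, searched in the same way, occurred in 0 of the 6 and in 2.30% of all promoters. A match is a run of letters and not a measured binding site. The 4 promoters with a match are shown 5′ to 3′ on the strand of the gene, with GAGGAA, or TTCCTC where the match is on the other strand, in capitals. The windows are chr4:136886201-136886450 for *C1qb*, chr4:136892915-136893164 for *C1qc*, chr11:69666171-69666420 for *Cd68* and chr17:35176053-35176302 for *Aif1*, all on the minus strand.
C1qb: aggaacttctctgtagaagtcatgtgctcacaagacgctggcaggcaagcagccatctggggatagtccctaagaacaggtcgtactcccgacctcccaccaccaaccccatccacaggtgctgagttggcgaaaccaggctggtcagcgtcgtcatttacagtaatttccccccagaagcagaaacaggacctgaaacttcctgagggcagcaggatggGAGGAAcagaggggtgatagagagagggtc
C1qc: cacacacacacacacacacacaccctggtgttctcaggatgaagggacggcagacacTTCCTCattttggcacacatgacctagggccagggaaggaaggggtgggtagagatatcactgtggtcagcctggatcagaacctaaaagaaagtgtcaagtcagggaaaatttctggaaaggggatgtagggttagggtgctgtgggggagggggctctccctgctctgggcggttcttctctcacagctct
Cd68: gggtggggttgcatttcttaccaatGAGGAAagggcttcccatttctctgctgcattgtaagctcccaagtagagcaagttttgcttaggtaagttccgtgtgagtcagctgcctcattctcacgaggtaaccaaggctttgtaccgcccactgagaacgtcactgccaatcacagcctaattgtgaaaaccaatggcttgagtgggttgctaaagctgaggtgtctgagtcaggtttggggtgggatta
Aif1: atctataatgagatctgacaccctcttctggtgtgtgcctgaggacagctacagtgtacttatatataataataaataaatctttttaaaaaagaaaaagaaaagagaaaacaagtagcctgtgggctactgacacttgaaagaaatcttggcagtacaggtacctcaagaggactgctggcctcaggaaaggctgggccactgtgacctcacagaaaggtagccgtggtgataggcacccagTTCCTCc

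The match began 7 bases before the RefSeq start in *Aif1*, 30 in *C1qb*, 193 in *C1qc* and 225 in *Cd68*. These starts are not the ends of the annotated genes given above, and the windows of *Aif1* and *C1qc* reach into them.

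The libraries held 14272174 to 29639719 reads assigned to genes. Crystallin genes took 23.8% to 76.1% of them, so levels are given as CPM scaled by the trimmed mean of M-values (TMM), that is, as counts relative to a scaled library total, and differences are log2 fold changes from a single edgeR quasi-likelihood fit of all groups. The 3 *Cryaa*-R49C-homo libraries differed widely in the share of reads on the non-coding gene *Gm42418*, at 2.53%, 24.5% and 42.6% in replicates 1, 2 and 3. Replicate 1 was also the lowest of the 3 for the summed level of the 10 markers. A count of 3 reads, taken as the floor, was worth 0.0661 to 0.330 CPM. These are bulk samples, in which fewer cells of a type and less RNA per cell cannot be told apart.

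All 10 markers had a positive log2 fold change in 2-day-old *Cryaa*-R49C-homo lenses against WT, with a median of 1.38 (2.61-fold), beside a median of 0.00473 over the 13938 genes tested. The summed level of the 10 genes was 14.3, 8.34 and 20.7 CPM in the 3 WT libraries, 11.03, 13.5 and 18.1 CPM in the het libraries, and 22.7, 37.2 and 44.1 CPM in the homo libraries. Each homo library was above each WT and het library, while all het values fell within the WT range. In 8 of the 10 genes the homo libraries all lay above the WT libraries, a pattern in 11.9% of all genes, and the exceptions were *C1qb* and *Cx3cr1*. At a false discovery rate (FDR) of 0.05, 3 of the 10 (*Itgad*, *C1qa* and *Aif1*) were called higher, against 4.87% of all genes higher and 4.91% lower. The number called was 8 without homo replicate 1, where 3092 of all genes were called, and 1 without WT replicate 1 or 2 or homo replicate 2 or 3. Nothing is read from these counts, since the contrast was known when the genes were chosen. *Itgad* passed the filter on low counts only through the homo group. The other 9 also passed it with that group set aside, and their log2 fold changes ran from 0.86 to 1.53 with a median of 1.30.

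**Figure D1:**
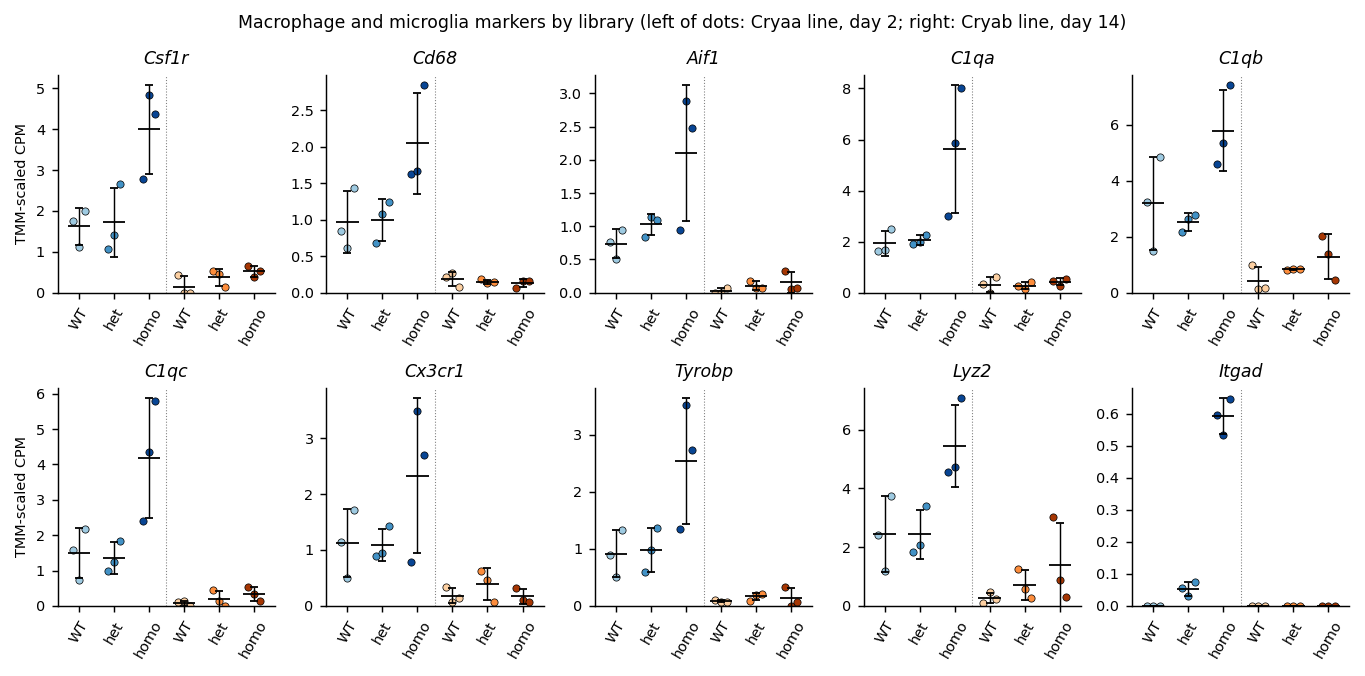
Level of each marker (y axes, TMM CPM, linear, each panel with its own scale) in the 18 libraries by group (x axes); points are libraries, bars are group means and error bars are the SD of 3 libraries. In the 2-day-old line the homo bars are the tallest in all 10 panels, and in the 14-day-old line all levels are low, with *C1qb* and *Lyz2* the most visible.

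*Csf1r*, the receptor for the growth factors CSF1 and IL-34 on which macrophages depend, was at 1.75, 1.11 and 2.00 CPM in the 2-day-old WT libraries, 1.06, 1.42 and 2.67 CPM in het, and 2.77, 4.84 and 4.37 CPM in homo. All homo values were above all others, and het spread across the WT range and beyond. The log2 fold change was 1.30 ± 0.46 (SE, n = 3 libraries per group) for homo against WT and 0.09 for het against WT. *Hmgxb3*, which shares 873 exon bases with *Csf1r* on the opposite strand, was counted at 34 to 46 reads in WT and 34 to 45 in homo, with a log2 fold change of -0.30 ± 0.34 (FDR 0.645). *Csf1r* itself had 33 to 57 reads in WT and 115 to 154 in homo.

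*Cx3cr1*, the receptor for the membrane-bound chemokine fractalkine, was at 1.15, 0.507 and 1.72 CPM in WT and 0.793, 3.49 and 2.70 CPM in homo. Homo replicate 1 lay inside the WT range, and the other two homo libraries lay above it. The log2 fold change was 1.04 ± 0.54, with the widest error of the 9 genes measured in all 2-day-old groups.

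*Tyrobp* encodes DAP12, an adaptor that carries the signal of TREM2 and related receptors. Its level was 0.895, 0.507 and 1.33 CPM in WT, 0.599, 0.980 and 1.37 CPM in het, and 1.34, 3.52 and 2.74 CPM in homo. The lowest homo library was only just above the highest WT library and below the highest het library. The log2 fold change of homo against WT was 1.47 ± 0.49.

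The 3 C1q chains are translated from separate genes and assemble into a single protein. *C1qa* was at 1.62, 1.69 and 2.49 CPM in WT, 1.91, 1.99 and 2.27 CPM in het, and 3.02, 5.85 and 8.02 CPM in homo, so that homo stood apart from both other groups. *C1qc* was at 1.58, 0.743 and 2.17 CPM in WT, 0.981, 1.23 and 1.84 CPM in het, and 2.40, 4.34 and 5.78 CPM in homo, again with homo apart. *C1qb* was at 3.24, 1.49 and 4.83 CPM in WT, 2.18, 2.62 and 2.77 CPM in het, and 4.60, 5.34 and 7.41 CPM in homo. Here WT replicate 3 exceeded homo replicate 1, so the WT and homo groups overlapped. The log2 fold changes of homo against WT were 1.53 ± 0.42 for *C1qa*, 1.47 ± 0.48 for *C1qc* and 0.86 ± 0.43 for *C1qb*, the smallest of the 10.

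The products of 2 markers serve the digestive compartment. *Cd68*, a glycoprotein of lysosomes and endosomes, was at 0.852, 0.608 and 1.44 CPM in WT, 0.681, 1.07 and 1.25 CPM in het, and 1.63, 1.67 and 2.85 CPM in homo. *Lyz2*, the lysozyme of macrophages and neutrophils, was at 2.43, 1.18 and 3.75 CPM in WT, 1.83, 2.09 and 3.39 CPM in het, and 4.56, 4.71 and 7.07 CPM in homo. In both genes homo lay above the other groups in every library. The log2 fold changes against WT were 1.07 ± 0.40 and 1.15 ± 0.53. *Aif1*, which encodes the actin-binding protein IBA1, was at 0.767, 0.507 and 0.946 CPM in WT, 0.844, 1.14 and 1.10 CPM in het, and 0.947, 2.89 and 2.47 CPM in homo. Homo replicate 1 was barely above WT replicate 3 and lay below 2 of the het libraries, while replicates 2 and 3 were well above. The log2 fold change of *Aif1* was 1.49 ± 0.47 for homo and 0.47 for het against WT.

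*Itgad* had a pattern of its own. It encodes integrin αD, which pairs with the β2 chain and is known from tissue macrophages. Its reads numbered 0, 0 and 0 in WT, 2, 1 and 3 in het, and 27, 17 and 17 in homo, or 0, 0.0536 ± 0.0216 and 0.592 ± 0.0561 CPM (mean ± SD, n = 3). The 3 homo libraries were nearly alike, with 0.595, 0.534 and 0.646 CPM, and replicate 1 was not the lowest of them, whereas it was the lowest for each of the other 9 genes. Against a floor of 3 counts in each WT library, homo was at least 5.31-fold higher. Against het, with 61 reads to 6, the ratio was 10.7, a description that rests on few het reads. In all 9 libraries of 14-day-old lenses *Itgad* was at 0.

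*Cox6a2*, a subunit of cytochrome c oxidase known from muscle, lies within the *Itgad* locus on the opposite strand and shares 70 exon bases with it. Its reads numbered 26, 40 and 42 in WT, 41, 63 and 44 in het, and 344, 684 and 468 in homo. It rose in the same 3 libraries as *Itgad*, by 3.56 ± 0.36 on the log2 scale (FDR 7.64e-07). In the 14-day-old lenses *Cox6a2* stayed at 8 to 25 reads per library, where *Itgad* was at 0. What part of the *Itgad* reads came from *Cox6a2* was not tested. *Itgb2*, the β2 chain without which integrin αD is not carried to the surface, was counted at 0, 1 and 2 reads in WT, 5, 3 and 2 in het, and 14, 4 and 8 in homo, too few for the test. Of the sister α chains, *Itgam* had 5, 6 and 12 reads in WT and 13, 8 and 8 in homo, and *Itgal* fell from 12, 16 and 10 reads to 6, 4 and 4 (log2 fold change -1.74 ± 0.52, FDR 0.0365). The reads of *Itgam* overlapped between WT and homo, and those of *Itgal* were lower in every homo library. The call of *Itgal* was lost on leaving out any of the 6 libraries other than WT replicate 3, and with library size alone as the scale.

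**Figure D2:**
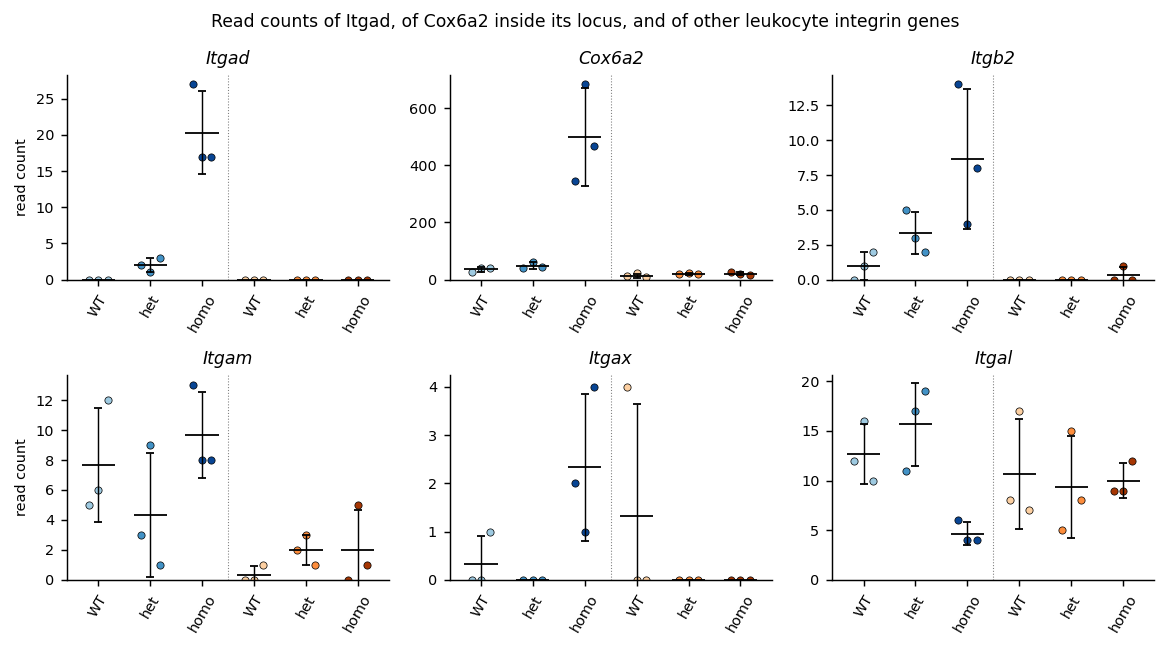
Read counts (y axes, linear, each panel with its own scale) of *Itgad*, of *Cox6a2* on the opposite strand of its locus, of the β2 integrin chain *Itgb2* and of the α chains *Itgam*, *Itgax* and *Itgal* in the 18 libraries by group; points are libraries, bars are means and error bars are the SD of 3 libraries. *Itgad* and *Cox6a2* share their 3 high libraries, the homo ones at 17 to 27 and 344 to 684 reads.

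In *Cryaa*-R49C-het lenses against WT the median log2 fold change of the markers was 0.07 over the 10 genes and 0.05 without *Itgad*. The sign of the first turned with 1 library left out, from -0.24 without het replicate 3 to 0.43 without WT replicate 3. In this comparison 0 of the 10 were called, as were 0% of all genes in the upward direction. Only *Itgad*, with its 6 reads against 0, had all het libraries above all WT libraries, a pattern in 9.57% of all genes. Among the other 9 genes the log2 fold changes ran from -0.33 for *C1qb* to 0.47 for *Aif1*. Set against het in place of WT, homo lenses gave a median of 1.20 (2.30-fold), a comparison that uses the same homo libraries. In 7 of the 10 genes all homo libraries were above all het libraries, against 11.6% of all genes, and *Aif1*, *Cx3cr1* and *Tyrobp* overlapped. The genes called in this comparison were *C1qa* (1.44 ± 0.41), *C1qc* (1.61 ± 0.48) and *Itgad* (3.31 ± 0.74), 3 of 10 beside 4.69% of all genes higher and 3.63% lower. Without *Itgad*, which passed the filter only through the homo group, these were 2 of 9. The number called was 9 without homo replicate 1, where 4132 of all genes were called, and 0 or 1 without any other of the 6 libraries, and nothing is read from these counts.

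**Figure D3:**
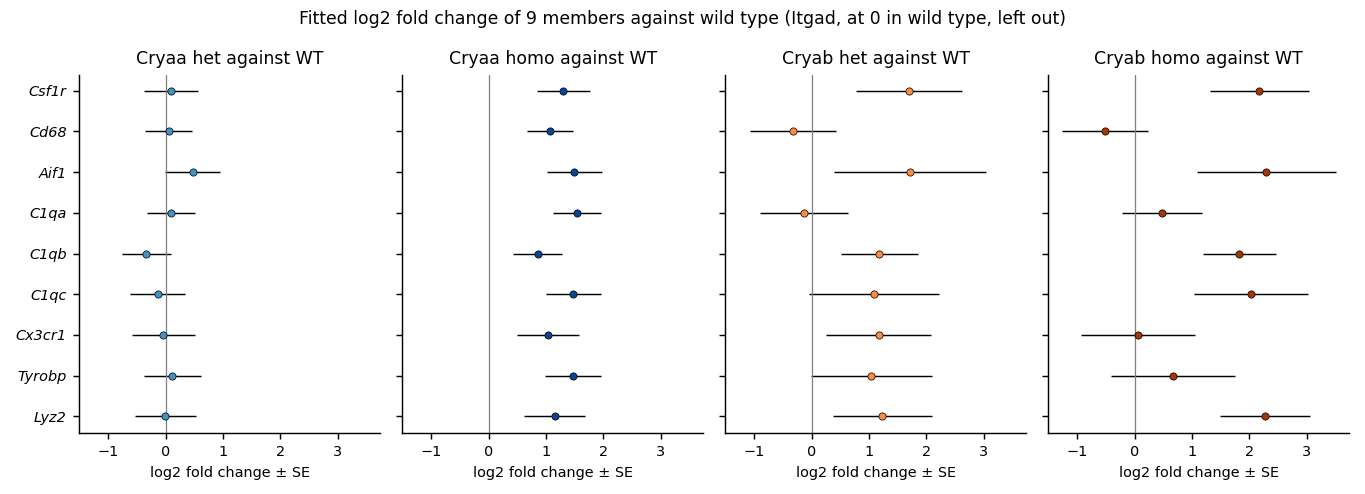
Log2 fold change against WT of the same line (x axis) with its SE (error bars, n = 3 libraries per group) for the 9 markers other than *Itgad* (y axis) in het and homo lenses of both lines. The 2-day-old homo values lie between 0.86 and 1.53, the 2-day-old het values around 0, and the 14-day-old homo values range from -0.52 to 2.29.

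A second list of macrophage genes, also drawn up with earlier results known, held 34 genes of the table that are not among the 10, and 32 were tested. In 2-day-old homo lenses against WT, 3 of the 32 were called higher and 0 lower, beside 4.87% and 4.91% of all genes. All 32 log2 fold changes were positive, with a median of 1.05, and 9 genes had all homo libraries above all WT libraries, a pattern in 11.9% of all genes. *F13a1*, the coagulation factor XIII A chain made by resident macrophages, was at 1.32, 1.28 and 1.89 CPM in WT and 2.25, 5.81 and 4.18 CPM in homo, and rose by 1.44 ± 0.39 on the log2 scale (FDR 0.0201). *Ms4a7*, a membrane protein of tissue macrophages, was at 1.11, 0.709 and 0.946 CPM in WT and 1.32, 4.46 and 3.23 CPM in homo, and rose by 1.70 ± 0.54 on that scale (FDR 0.0474). Both genes stood apart in all homo libraries. *Stab1*, a scavenger receptor of macrophages and of some endothelium, was at 17.7, 14.5 and 9.85 CPM in WT and 15.9, 30.6 and 41.7 CPM in homo, so that the groups overlapped, and its log2 level rose by 1.07 ± 0.27 (FDR 0.0127). With the homo group set aside, 24 of the 32 passed the filter, and these 24 were all positive as well. The number called was 10 without homo replicate 1 and 1 without WT replicate 1 or 2 or homo replicate 2 or 3. The call of *Ms4a7* was lost on leaving out any of the 6 libraries other than homo replicate 1 (log2 fold changes of 1.29 to 2.06), that of *F13a1* without WT replicate 1 or 2 or homo replicate 2 (1.09 to 1.73), and that of *Stab1* without WT replicate 3 or homo replicate 3 (0.74 to 1.37).

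Against het, 5 of the 32 were called higher and 0 lower, beside 4.69% and 3.63% of all genes. With log2 fold changes in brackets, they were *Stab1* (1.49, FDR 0.00125), *F13a1* (1.57, FDR 0.0139), the mannose receptor *Mrc1* (1.84, FDR 0.0183), the NADPH oxidase chain *Cybb* (2.37, FDR 0.0242) and the leukocyte actin-bundling protein *Lcp1* (1.44, FDR 0.0332). The number called was 14 without homo replicate 1 and 1 to 3 without any other of the 6 libraries, and *Stab1* was called in each case. In het against WT, 0 of the 32 were called, 0 were past an unadjusted p of 0.05, as against 709 of all 13938 genes, DESeq2 called 0, and 13 were positive and 19 negative. The summed level of the list was 51.2, 34.6 and 55.3 CPM in WT, 31.4, 44.1 and 47.9 CPM in het, and 60.7, 124 and 117 CPM in homo. As with the 10 markers, homo replicate 1 was the closest to WT.

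**Figure D4:**
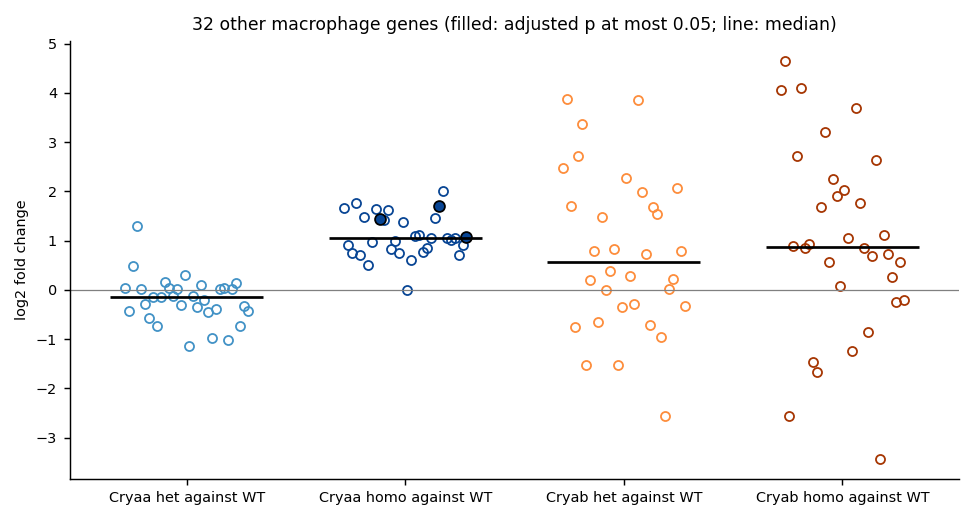
Log2 fold change (y axis) of the 32 other macrophage genes in each comparison (x axis); each point is a gene, filled points passed an FDR of 0.05 and the line is the median. The comparisons are het and homo lenses against WT of the same line. The points of 2-day-old homo against WT are all above 0 with a median of 1.05. The medians at 14 days are 0.56 for het and 0.87 for homo.

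Of 12 genes that are enriched in microglia over other macrophages, 8 were tested. *Tmem119* and *Siglech*, defining microglial genes, reached at most 0.142 and 0.149 CPM as a group mean, and *P2ry12*, a purine receptor of microglia, had group means of 0.574 to 1.28 CPM, the lowest in 2-day-old homo lenses. In 2-day-old homo against WT, 0 of the 8 were called, with 5 positive, 3 negative and a median of 0.39. In 3 genes all homo libraries were above all WT libraries, a pattern in 11.9% of all genes, and in 1 gene all were below. Of the 3 higher genes, *Trem2*, the phagocyte receptor that signals through DAP12, was counted at 5, 18 and 22 reads in WT and 35, 44 and 57 in homo (log2 fold change 1.40 ± 0.57, FDR 0.125). Its lowest homo library and highest WT library were both at 0.771 CPM. Against het, only *Sall1*, a transcription factor of microglia that other tissues also express, was called (1.09 ± 0.28, FDR 0.0184), beside 4.69% of all genes called higher, a call lost without het replicate 1 or 3 or homo replicate 2 or 3. Microglia and other macrophages could not be told apart from these levels, so the 10 genes are called macrophage markers from here on.

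Among 12 tested genes of activated phagocytes, *Spp1*, which encodes the secreted protein osteopontin, was the 1 called higher in 2-day-old homo lenses against WT and 0 were called lower, beside 4.87% and 4.91% of all genes. It was at 0.128, 0.405 and 0.0701 CPM in WT and 0.374, 1.98 and 5.32 CPM in homo, a change of 3.59 ± 1.03 (FDR 0.0345) over a wide homo spread, and the groups overlapped. The call was lost on leaving out any of the 6 libraries other than homo replicate 1, with log2 fold changes of 2.48 to 4.61. Of 5 tested genes of antigen presentation on MHC class II, 4 were positive and not called, and *H2-Eb1* was called lower. It was at 1.24, 1.22 and 0.455 CPM in WT, 0.354, 0.348 and 0.299 CPM in het, and 0.0440, 0.220 and 0.0380 CPM in homo, and fell by 3.23 on the log2 scale (SE 0.48, FDR 8.68e-05). All homo libraries were below all WT and het libraries, in the lenses with the highest macrophage marker levels. The call held with each library left out in turn, with log2 fold changes of -4.35 to -2.77.

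Of 7 tested ligands and partners of the markers, 1 was called lower and 0 higher in 2-day-old homo against WT, beside 4.91% and 4.87% of all genes. *Csf1*, a ligand of CSF1R, was counted at 16, 23 and 24 reads in 2-day-old WT and 37, 39 and 39 in homo, with a log2 fold change of 0.60 ± 0.64 (FDR 0.627). *Il34*, the other ligand, gave 0.67 ± 0.62 (FDR 0.561), and the kinase *Syk*, which acts below DAP12, gave 1.24 ± 0.65 (FDR 0.254). The complement inhibitor *Serping1* gave -0.08. The list held 14 genes, and the call was that of *Itgal*, lower in homo. The proteases that C1q activates, *C1ra* and *C1s1*, and the components *C2*, *C3* and *C4b* had too few reads to test.

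Of 10 tested endothelial genes, 2 were called higher and 0 lower in 2-day-old homo against WT, beside 4.87% and 4.91% of all genes. All homo libraries were above WT in 2 of the 10, a pattern in 11.9% of all genes. The summed level of an endothelial list was 47.7, 40.2 and 60.4 CPM in 2-day-old WT, 37.3, 41.9 and 48.1 CPM in het, and 44.4, 122 and 118 CPM in homo. Homo replicates 2 and 3 were above every WT library, whereas replicate 1 was within the WT range although its summed macrophage markers, at 22.7 CPM, were above it. On the log2 scale, the called endothelial genes *Tie1* (1.86, FDR 0.0200) and *Cdh5* (1.78, FDR 0.0247) rose in homo against WT, as did the pericyte gene *Rgs5* (1.48, FDR 0.0183), while the collagen chain *Col1a2* fell by 1.03 (FDR 0.0129). A list of pericyte and mesenchyme genes summed to 47.0, 38.2 and 54.7 CPM in WT and 35.4, 129 and 102 CPM in homo, of which *Rgs5* made up 23.7 CPM of the WT mean and 66.2 CPM of the homo mean. Of the 8 tested genes of that list 4 were positive and 4 negative, with 1 called higher, 1 called lower and a median of 0.02, while all 10 endothelial genes were positive, with a median of 0.94. The ratio of the summed 10 markers to the endothelial sum was 0.299, 0.208 and 0.342 in WT, 0.296, 0.323 and 0.378 in het, and 0.510, 0.305 and 0.374 in homo, so WT and homo overlapped on that scale. The part of vessel-associated tissue on the lens surface in the marker difference was not tested. Erythrocyte genes summed to 57.8, 36.8 and 54.1 CPM in WT, 47.3, 103 and 77.6 CPM in het, and 41.5, 150 and 79.5 CPM in homo, with 4 of 5 positive in homo against WT, a median of 1.03 and 0 called. Of 8 tested pigment cell genes 7 were negative, with a median of -1.13 and 2 called lower. The part of blood or pigmented tissue in the marker levels was not tested. Genes of other white blood cells had few reads, and 1 of 11 neutrophil, 1 of 10 lymphocyte and 1 of 6 mast cell genes could be tested. In the 2-day-old libraries the neutrophil list summed to 0.494 to 2.37 CPM, the lymphocyte list to 1.65 to 3.05 CPM and the mast cell list to 0.683 to 1.89 CPM. In the 14-day-old WT libraries the neutrophil list summed to 2.67 to 3.803 CPM and the lymphocyte list to 2.87 to 4.68 CPM, both above the 1.13 to 2.64 CPM of the 10 macrophage markers there. These sums rested on few genes, since 2 of 11 neutrophil genes and 2 to 5 of 10 lymphocyte genes had reads in a library. They are not read as levels of these cells. Of the defining genes, *Cd3e*, *Klrb1c* and *Ms4a2*, which define T cells, natural killer cells and mast cells, were at 0 in all groups. Other genes of these lists had reads. In 2-day-old WT, 6 of 10 lymphocyte and 4 of 6 mast cell genes were detected, with *Kit* of the mast cell list at 82 reads. The genes at 0 therefore do not show that these cells were absent.

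**Figure D5:**
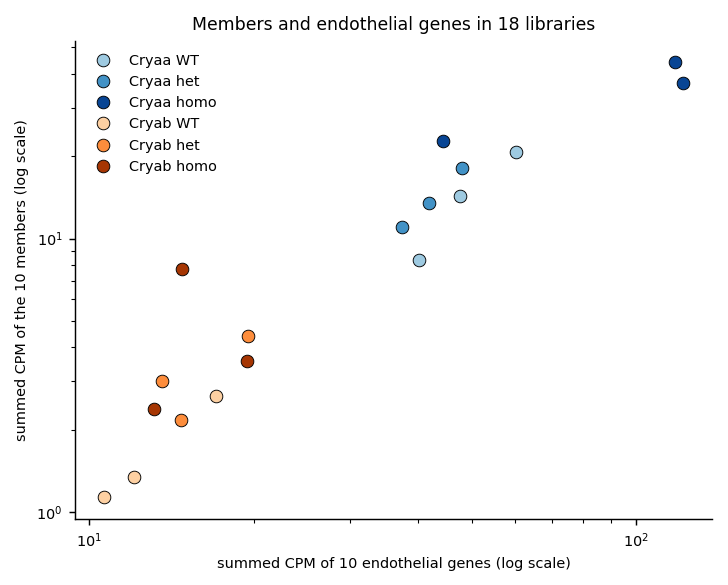
Summed level of the 10 macrophage markers (y axis, TMM CPM, log scale) against the summed level of the endothelial list (x axis, TMM CPM, log scale); each point is 1 of the 18 libraries, colored by group. The 14-day-old libraries lie at the lower left, and 2 of the 3 2-day-old homo libraries lie at the upper right, at 122 and 118 CPM of endothelial genes.

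At 14 days the macrophage markers were close to the limit of detection. The 10 genes together took 17 to 24 reads in the *Cryab*-R120G WT libraries, 31 to 49 in het and 31 to 118 in homo, compared with 247 to 590 in 2-day-old WT. Their summed level was 2.64, 1.13 and 1.34 CPM in WT, 4.42, 3.00 and 2.17 CPM in het, and 7.73, 3.58 and 2.37 CPM in homo. The het and homo libraries overlapped each other and WT, and the highest value by far was that of homo replicate 1.

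Homo against WT at 14 days gave a median log2 fold change of 1.82 over the 9 markers with reads, 8 positive and 1 negative, and of 1.24 (2.37-fold) over all 10 with *Itgad* entered as 0. By edgeR 0 of the 9 were called, as against 0.0287% of all genes called higher and 0.0215% lower, and 3 were past an unadjusted p of 0.05, as were 850 of all 13938 genes. *C1qb* was counted at 9, 2 and 2 reads in WT, 9, 13 and 12 in het, and 31, 25 and 6 in homo, with a log2 fold change of 1.82 ± 0.64. *Lyz2* was counted at 1, 7 and 3 reads in WT, 14, 9 and 4 in het, and 46, 16 and 4 in homo (2.27 ± 0.78), and *Csf1r* at 4, 0 and 0 in WT and 10, 7 and 7 in homo (2.18 ± 0.87). For *C1qb* and *Lyz2* homo replicate 3 fell back among the WT values on the CPM scale, so only *C1qc*, at 1, 2 and 0 against 8, 6 and 2 reads, had all homo libraries above WT, a pattern in 4.51% of all genes. No label states that replicate numbers pair samples, and they were taken to pair these groups only from correlations of 0.277, 0.176 and 0.156. Set side by side by replicate number, the summed level was higher in homo in each of the 3 pairs, while the unpaired sums overlapped. The levels of *C1qb*, *Lyz2*, *Csf1r*, *C1qc* and *Aif1* were also higher in each pair, the last by 1 read or fewer in pairs 2 and 3. Those of *Cd68*, *C1qa*, *Cx3cr1* and *Tyrobp* were not. With the number as a block 0 of the 9 were called. *Cd68*, *Aif1*, *Tyrobp* and *Cx3cr1* had 0 to 5 reads in each WT and homo library, from which no direction could be read. With 1 library left out the log2 fold change ran from 1.47 to 6.66 for *Csf1r* and from 1.34 to 3.17 for *C1qb*, both highest without WT replicate 1, and from 1.09 without homo replicate 1 to 2.97 for *Lyz2*. With every gene that had a read kept in the fit, *C1qb* and *Lyz2* were called, among 302 of all genes. Without homo replicate 1 the median over the 10 was 0.74. That library was also the highest in a list of retinal genes, which summed to 904, 476 and 168 CPM in homo and 608, 23.8 and 76.5 CPM in WT. Pigment cell genes summed to 21.5, 8.27 and 8.76 CPM in WT, 65.1, 32.6 and 20.2 CPM in het, and 55.6, 41.3 and 20.8 CPM in homo. All 8 tested pigment genes were positive in homo (median 1.78) and in het (median 2.23) against WT. In each comparison 6 of them had all mutant libraries above WT, a pattern in 4.51% (homo) and 4.62% (het) of all genes. All 5 tested erythrocyte genes were positive as well, with medians of 0.96 in homo and 2.30 in het. What part retinal, pigmented or blood tissue had in the 14-day levels was not tested.

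Het against WT at 14 days gave a median of 1.17 over the 9 genes, 7 positive and 2 negative. Again 0 of the 9 were called by edgeR and 0 were past an unadjusted p of 0.05, a limit that 532 of all genes passed, beside 0.00717% of all genes called higher and 4.62% with all het libraries above WT. Homo against het gave a median of 0.58, 6 positive and 3 negative, 0 called and 0 past an unadjusted p of 0.05, beside 0% of all genes called higher and 274 past the unadjusted limit. Without het replicate 1 the first median was 0.64 over the 10 genes, and without homo replicate 1 the second was 0.053. Of the 32 other macrophage genes, 0 were called in het against WT, homo against WT or homo against het, with 1, 3 and 2 past an unadjusted p of 0.05, beside 532, 850 and 274 of all 13938 genes. Their median log2 fold change in homo against WT was 0.87, with 24 positive and 8 negative.

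The difference between the homo effects of the lines was taken from the same fit. For the 9 markers with an estimate, the log2 fold change in *Cryab*-R120G minus that in *Cryaa*-R49C ran from -1.59 to 1.13, 5 positive and 4 negative, with a median of 0.55. It was called in 0 of the 9, beside 1.75% of all genes called in the positive and 1.16% in the negative direction, and 0 of the 9 were past an unadjusted p of 0.05, as against 2141 of all 13938 genes. For *Itgad* it could not be estimated.

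Between WT lenses of the lines, the markers were far lower at 14 days than at 2 days. All 9 markers other than *Itgad*, which was at 0 in both groups, were called lower in *Cryab* WT than in *Cryaa* WT, with all libraries apart. Of all genes, 11.5% were called lower, 11.7% higher, and 22.9% had all *Cryab* WT libraries below all *Cryaa* WT libraries, and nothing is read from the count of markers. *Csf1r* went from 41, 33 and 57 reads to 4, 0 and 0, a 13.9-fold lower level. *C1qb* went from 76, 44 and 138 reads to 9, 2 and 2 (8.61-fold), *Lyz2* from 57, 35 and 107 to 1, 7 and 3 (8.40-fold) and *C1qa* from 38, 50 and 71 to 3, 0 and 8 (6.41-fold). *Cd68* was 5.07-fold lower and *Cx3cr1* 6.66-fold lower. These folds rest on few reads in *Cryab* WT. With 1 library left out the log2 fold change ran from -8.29 (without *Cryab* WT replicate 1, which held all 4 reads) to -3.10 for *Csf1r*, from -4.45 (without *Cryab* WT replicate 1) to -2.62 for *C1qb*, and from -3.85 (without *Cryab* WT replicate 3) to -2.003 for *C1qa*. It ran from -3.76 (without *Cryab* WT replicate 2) to -2.62 for *Lyz2* and from -3.35 (without *Cryab* WT replicate 1) to -2.28 for *Cx3cr1*. *Aif1*, *C1qc* and *Tyrobp* had 1 to 3 reads over all 3 *Cryab* WT libraries, against 60, 121 and 74 over the *Cryaa* WT libraries. The median over the 9 genes was -3.11 on the log2 scale.

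Of the 32 other macrophage genes, 19 were called lower at 14 days and 0 higher, beside 11.5% and 11.7% of all genes, with a median of -3.26. *C3ar1*, *Adgre1*, *Ly86*, *Cd84* and *Fcgr1*, with the most negative values, were at 0 in all 3 *Cryab* WT libraries. *C3ar1*, the receptor for complement fragment C3a, was at least 2.98-fold lower against the floor (FDR 0.00550). *Stab1* did not follow, with group means of 14.0 CPM at 2 days and 10.7 CPM at 14 days (FDR 0.336). Without *Cryaa* WT replicate 3, *Cryab* WT replicate 2 or *Cryab* WT replicate 3 the number called was 9, 10 or 11, and *Adgre1* and *Ly86* were among the calls lost in each case. The call of *Cd84* was lost on leaving out any of the 6 libraries other than *Cryaa* WT replicate 2, and that of *Fcgr1* on leaving out any other than *Cryaa* WT replicate 1. Of the 10 endothelial genes, 8 were called lower and 0 higher, beside 11.5% and 11.7% of all genes. The other 2 were negative and not called. Among the 8 were *Kdr*, *Cdh5* and *Flt1*, with log2 fold changes of -3.66, -3.33 and -2.96, and the endothelial sum was 17.1, 10.7 and 12.1 CPM in *Cryab* WT.

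Other lists of phagocyte genes gave calls in both directions between 14 and 2 days, with 3 higher and 3 lower of 12 genes of activated phagocytes, 1 higher and 1 lower of 8 microglia-enriched genes, and 1 higher and 0 lower of 5 MHC class II genes, beside 11.7% and 11.5% of all genes. *H2-Eb1* was at 14.1, 15.4 and 14.5 CPM in *Cryab* WT against 1.24, 1.22 and 0.455 CPM in *Cryaa* WT, higher by 3.92 on the log2 scale (FDR 6.52e-08). *Lgals3*, the secreted lectin galectin-3, was higher by 2.45 (FDR 2.10e-07), and *Olfml3*, a secreted protein listed with microglia, by 1.72 (FDR 0.000285). *Trem2* was lower (log2 fold change -3.20, FDR 0.0173), as were *Igf1* (-2.45, FDR 0.0133), *Axl* (-2.11, FDR 0.00270) and *Apoe* (-1.98, FDR 0.0146). The calls of *Trem2*, *Igf1* and *Apoe* were lost without *Cryaa* WT replicate 3, and also without *Cryab* WT replicate 2 (*Trem2* and *Igf1*) or replicate 3 (*Trem2* and *Apoe*). With 1 library left out the log2 fold changes ran from -3.76 to -2.61 for *Trem2*, from -3.74 to -1.81 for *Igf1* and from -2.74 to -1.58 for *Apoe*. That of *Axl*, whose call held, ran from -2.77 to -1.52. *Cx3cl1*, the ligand of CX3CR1, was lower as well (-0.97, FDR 0.0337), a call lost on leaving out any of the 6 libraries other than *Cryaa* WT replicate 3. *Lpl* (1.02, FDR 0.0149) and *Cd63* (0.78, FDR 0.0230) were called higher here and changed sign, to -0.57 and -0.78, when libraries were scaled by their totals alone, which moved the median of all genes to -1.61 and that of the 10 markers to -4.72. The call of *Lpl* was also lost without *Cryaa* WT replicate 2 or *Cryab* WT replicate 2, and that of *Cd63* without replicate 2 or 3 of either WT group.

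Per kilobase of gene, which allows levels to be set side by side between genes, *C1qb* was the highest marker in 2-day-old WT at 2.93 ± 1.54 CPM per kilobase (mean ± SD, n = 3). *Lyz2* (1.94 ± 1.01), *C1qa* (1.86 ± 0.464) and *Tyrobp* (1.61 ± 0.732) followed, and none of these differed from its neighbor by more than the larger SD. A gap beyond the spread came below *Tyrobp*, with *C1qc* at 0.775, *Cd68* at 0.768 and *Aif1* at 0.483 CPM per kilobase, but not with gene lengths from the reference annotation, which put *Tyrobp* at 1.37 ± 0.619. Another came below *Aif1*, with *Csf1r* at 0.332, *Cx3cr1* at 0.301 and *Itgad* at 0. In homo lenses the same 4 genes led, with *C1qa* first at 5.41 ± 2.41 and *C1qb* at 5.32, and *Itgad* remained the lowest at 0.131 ± 0.0124. The single C1q protein was thus represented by transcripts at unequal levels per length, with *C1qc* the lowest of the 3 chains in each of these groups. At 14 days *C1qb* had the highest mean, at 0.390 ± 0.451 in WT and 1.18 ± 0.726 in homo, not beyond the spread of the gene below it.

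Over the 9 libraries of the 2-day-old line the markers went up and down together. Pearson's r between the log2 CPM of a marker and the mean of the other markers ran from 0.79 for *Itgad* and 0.83 for *Cx3cr1* to 0.97 for *Tyrobp* and 0.99 for *C1qc*, points that share library and depth. Over the 9 libraries of the 14-day-old line it ran from -0.42 for *Cd68* to 0.79 for *Csf1r*, at a few reads per gene. The genes outside the 10 whose log2 CPM was most like the mean of the markers over the 18 libraries, with the mean of each line removed, were *Ifi27l2a* (r = 0.93), *Fam212b* (0.89), *Gm26520* (0.89), *Fcer1g* (0.87), *Ms4a7* (0.85), *Zfp952* (0.85), *Sparcl1* (0.85), *Cd84* (0.85), *Sat1* (0.84) and *Arhgef15* (0.84). Of these, *Fcer1g*, the common γ chain of Fc receptors, *Ms4a7* and *Cd84* belong to the list of other macrophage genes.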

How the data were processed

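Whole lenses of 18 pooled samples were sequenced by poly-A selected RNA-seq with single reads of 50 bases. According to the submitters' processing notes, reads were processed with CASAVA 1.8, aligned with STAR 2.0.4b to GRCm38 and assigned to genes with featureCounts 1.4.5, and the authors deposited raw read counts per gene. The authors also deposited CPM values and RPKM values made from these counts, which were used here only for the gene lengths they imply. A table of moderated log2 CPM was not used. The strand setting is not given in the sources used here. Each library pooled lenses of several animals, so p-values measure the spread between pooled libraries.

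Libraries were grouped by title. Counts were analyzed in R 4.3.3 with edgeR 4.0.16 (filterByExpr, which kept 13938 of 40800 genes, TMM scaling, robust quasi-likelihood F test of 6 groups in 1 fit), with Benjamini-Hochberg adjustment over all genes of a contrast and calls at an FDR of 0.05. The study kept every gene with a read, and that filter was an alternative here because it left edgeR no estimate of how the spread differs between genes. The pipeline was tested on simulated data. Log2 CPM values used a prior count of 2. Floors cover counting error only, and reads are not independent molecules.

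The 10 markers and all gene lists were chosen with earlier results of these data known. Beyond the 10 markers, at most the 5 largest rises and 5 largest falls past the threshold were named from each list of phagocyte genes, at most 3 from lists of other cell types, any ligand or partner, defining markers, and the 10 genes most like the mean of the markers. *Stab1* in the comparison of WT lenses, *Trem2* in 2-day-old homo lenses, *P2ry12*, *Tmem119* and *Siglech* were named outside this rule after their values were seen, as were *Cox6a2* and *Hmgxb3* for their shared exon bases.

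Alternatives were RLE scaling, library size alone, no filter on low counts, totals without crystallin genes and *Gm42418*, the lines fitted apart, DESeq2 1.42.0, a replicate block, gene lengths from the reference annotation, and each library left out. A filter that ignores the *Cryaa*-R49C-homo libraries was added after seeing the data. Whether replicate numbers pair samples was checked by the correlation of same-numbered deviations from group means. For *Cryab* WT and homo it was 0.277, 0.176 and 0.156, so the numbers were taken to pair these groups from the data, and in the other 5 pairs of groups of a line at least 1 value was below 0.1. Promoters came from RefSeq (GRCm38.p6). The identity of the C1q chains was not analysed here.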

Additional observations from a re-analysis of the deposited data

Results flagged for a closer look

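*H2-Eb1*, a chain of MHC class II, was flagged because its homo effect differed between the lines. In *Cryaa*-R49C it was at 1.24, 1.22 and 0.455 CPM in WT and 0.0440, 0.220 and 0.0380 CPM in homo (log2 fold change -3.23 ± 0.48, edgeR FDR 8.68e-05). In *Cryab*-R120G it was at 14.1, 15.4 and 14.5 CPM in WT and 8.58, 14.7 and 10.3 CPM in homo (-0.39 ± 0.29, FDR 0.943). The interaction, *Cryab* minus *Cryaa*, was 2.85 ± 0.57 on the log2 scale (FDR 0.00572). With 1 library left out it ran from 2.38 to 3.97, and the call held in each case. Of all genes, 1.75% were called in this direction, and line and age cannot be told apart. The other 4 tested MHC class II genes were not called in either line or in the difference between the lines. In *Cryab* WT the whole MHC class II list summed to 15.8, 16.9 and 15.5 CPM, most of it *H2-Eb1*. The difference is thus one of this gene and not of the list, and its cause was not tested. Groups of 3 libraries were too small for a check of single samples that stand apart.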

How the results depend on the processing

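In 2-day-old *Cryaa*-R49C-homo against WT, the median log2 fold change of the 10 markers stayed positive under every alternative run, between 1.10 and 1.65 with 1 library left out, while the number called moved: 6 with library size alone, 7 with all genes with a read, 6 with the replicate block, 5 with the line fitted apart, 5 with DESeq2, and 1 to 8 with 1 library left out. The number of other macrophage genes called was 8, 7 and 5 with library size alone, all genes with a read and DESeq2, and 1 to 10 with 1 library left out. Against het, the markers called numbered 7 with all genes with a read, 5 with the block and 0 to 9 with 1 library left out, and the other macrophage genes 9, 8 and 1 to 14. The highest of these came without homo replicate 1. In *Cryab*-R120G-homo against WT, 2 markers were called with all genes with a read, and the median was 0.74 to 1.55 with 1 library left out. The median of het against WT then ran from 0.64 to 1.40 and that of homo against het from 0.053 to 0.64 (medians over 10 genes, *Itgad* as 0). With the line fitted apart the median of homo against WT was 2.06, over only the markers that passed the filter on low counts within that line. *Itgad*, at 0 there, could not pass, so 2.06 is not a median over the 10 genes. In *Cryab* WT against *Cryaa* WT, library size alone gave a median of -4.72, 30 other macrophage genes called and reversed signs for *Lpl* (-0.57) and *Cd63* (-0.78), these lines fitted without the mutants gave 9 called, and leaving out 1 library 9 to 20. For the difference between the lines, 1 gene of that list was called with library size alone, 2 with all genes with a read, and 0 to 2 with 1 library left out.

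Of all genes, library size alone called 2138 in *Cryaa*-R49C-homo against WT (1884 higher, 254 lower) where TMM scaling called 679 higher and 685 lower, and 11596 in *Cryab* WT against *Cryaa* WT (157 higher, 11439 lower) where TMM scaling called 1634 higher and 1603 lower, with medians over all genes of 0.41 and -1.61. The all-gene count of homo against WT was 1498 with all genes with a read, 1440 with the block, 1020 with the line fitted apart and 1691 with DESeq2, and that of homo against het 1419 with all genes with a read and 1280 with the block. In *Cryab* homo against WT, 302 were called with all genes with a read. Leaving out 1 library moved the all-gene count of homo against WT from 731 to 3092, that of homo against het from 453 to 4132, that of WT against WT from 1782 to 3172 and that of the difference between the lines from 244 to 1800. With the replicate block, *Cryab* homo against WT gave 18 called in place of 7, and it changed no other call there among the markers or the other macrophage genes. In the other pairs of groups the samples share only a number. The block could not be fitted between the lines. For single genes of the lists, 104 calls stayed and 82 were lost with 1 library left out, and 185 stayed, 14 were lost and 2 reversed under the other settings. The filter that ignores the homo libraries moved no count beyond the limit of 1.5 times. The causes were not tested. In the 14-day-old WT libraries each marker had under 10 reads, which limits the precision of its fold changes.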
